A study of Mus musculus with 6 samples.

Results

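The genes described here make up a stress programme of amino acid supply that the transcription factor ATF4 is known to switch on. They were given as 33 gene symbols, and a gene entered where a transcript cluster of the array carried that symbol and no other. A transcript cluster is the set of probes that Mouse Gene 2.0 ST arrays summarise into 1 value. This gave 31 of the 33 genes, out of 22180 genes with a value. Aars shared its transcript cluster with a neighbouring gene, and Pycr1 was not analysed here. Of the 31, only Slc7a11 had more than 1 transcript cluster, and the one with the higher mean over all arrays stood for it. No measured value entered the rule for the members, but they were chosen with earlier results of these data known.

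The myeloid cells came from mouse fetal liver and were cultured with GM-CSF at 1 ng/ml, a cytokine that drives the growth of granulocytes and macrophages. These either stayed uninduced or received 1000 ng/ml doxycycline for 72 hours, a treatment the labels equate with expression of PU.1, the myeloid ETS factor encoded by Spi1. There were 3 uninduced and 3 induced samples, named A, B and C in each group, with 1 array each. The labels give no genotype or construct and no sample with doxycycline alone, so effects of the drug and of PU.1 cannot be told apart. Separate cultures are not stated in the labels, and the p-values therefore reflect only sample-to-sample spread, possibly technical.

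ATF4 acts at the end of the integrated stress response. Kinases that sense missing amino acids, unfolded protein, missing haem or viral RNA phosphorylate the translation factor eIF2alpha, and translation in general then slows while that of Atf4 mRNA rises. ATF4 pairs with C/EBP proteins and binds composite C/EBP-ATF elements near genes that make, import and charge amino acids, and near genes that end the response or lead to cell death. Because ATF4 is set largely by translation, its own mRNA is a partial guide to its activity. Growing cells also use parts of the programme without stress, as serine synthesis and tRNA charging feed protein and nucleotide synthesis.

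The composite element can be seen in the members' promoters, which are shown because it is the sequence the programme is known for. RefSeq windows of assembly GRCm38.p6 (250 bases before to 50 after an annotated start) were available for 27 of the 33 genes. They were searched on both strands for TGATGNAA, the core of the C/EBP-ATF element, and for TGACNNNGC, the core of the antioxidant response element that NRF2 binds. The first was found in 9 of the 27 genes (33.3%), against 4.51% of the 27025 genes with a window and 3.97% of the 32851 windows. The second was found in 8 of the 27 (29.6%), against 14% of genes and 12.4% of windows. No match of one overlapped a match of the other. A match is a description of the letters and not a measured binding site. The whole windows of Asns (chr6:7693160-7693459, minus strand) and Chac1 (chr2:119350992-119351291, plus strand) follow, read 5′ to 3′ along the gene, with matches to TGATGNAA or its reverse complement in capitals:
Asns: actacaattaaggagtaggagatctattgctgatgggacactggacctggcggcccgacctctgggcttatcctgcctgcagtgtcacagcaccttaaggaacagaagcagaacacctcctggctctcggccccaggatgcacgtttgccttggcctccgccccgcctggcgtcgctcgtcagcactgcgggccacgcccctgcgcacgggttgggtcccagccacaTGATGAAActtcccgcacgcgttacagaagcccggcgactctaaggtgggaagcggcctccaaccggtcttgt
Chac1: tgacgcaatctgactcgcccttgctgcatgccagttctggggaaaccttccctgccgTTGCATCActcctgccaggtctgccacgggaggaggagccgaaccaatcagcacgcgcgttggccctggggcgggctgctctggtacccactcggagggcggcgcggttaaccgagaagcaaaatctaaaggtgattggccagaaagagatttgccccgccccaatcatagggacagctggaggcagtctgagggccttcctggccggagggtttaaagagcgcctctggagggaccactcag

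Counted from the annotated start, the match in Asns began at position -23 on the gene's strand and the one in Chac1 at -193 on the other strand. For 5 other measured members, 30 bases around each match are shown, to compare the bases next to the core. They are 2 matches of Slc7a11 (chr3:50443661-50443690 and chr3:50443642-50443671, minus strand), 1 of Nupr1 (chr7:126625562-126625591, minus), 1 of Gars (chr6:55037960-55037989, plus), 1 of Trib3 (chr2:152344028-152344057, minus) and 1 of Vldlr (chr19:27216809-27216838, plus). Capitals mark the matched bases, which are the reverse complement of the core in all but the first.
Slc7a11 distal: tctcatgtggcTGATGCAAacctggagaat
Slc7a11 proximal: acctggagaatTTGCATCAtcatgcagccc
Nupr1: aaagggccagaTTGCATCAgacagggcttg
Gars: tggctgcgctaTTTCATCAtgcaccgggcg
Trib3: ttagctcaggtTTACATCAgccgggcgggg
Vldlr: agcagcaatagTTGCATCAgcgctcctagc

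**Figure D1:**
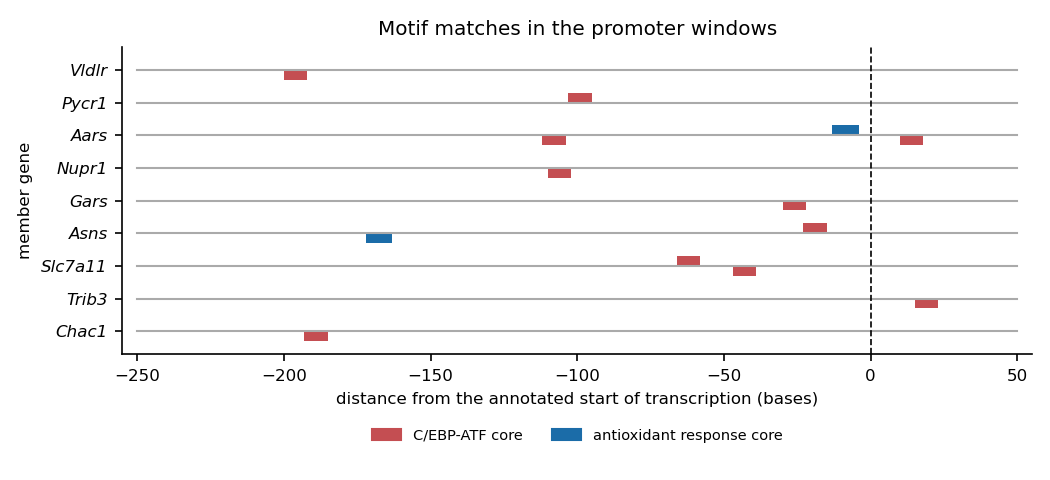
Position of each motif match in the promoter windows of the 9 members that held TGATGNAA, in bases from the annotated start (dashed line); blocks above a gene's line are on the gene's strand and blocks below it on the other. Slc7a11 and Aars held 2 matches each, and those of Trib3 and 1 of Aars lay after the start.

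Before the results, 2 features of the arrays bear on every value. First, change depended on level. On the log2 scale of the deposited values, genes with a mean below 7 mostly differed upward in induced cells and genes with a mean of 8 or more mostly downward. The median log2 change was 0.19 for the 5861 genes between 6 and 7 and -0.37 for the 1871 genes between 9 and 10, of which 92.4% were below 0. Second, induced A lay near the uninduced arrays. It correlated at 0.991, 0.974 and 0.986 with uninduced A, B and C, and at 0.973 and 0.981 with induced B and C. The members are therefore given beside all genes and beside the 6311 genes with a mean of at least 8. They are also given after cyclic loess, which evens out differences that depend on level between arrays, and without induced A. Some granulocyte precursor markers were bright on all arrays, such as Ngp at 12.45 to 12.64 and Cebpe at 10.56 to 11.35. Kit, from the list of mast cell markers, was at 9.16 to 9.72. Of 9 neutrophil markers, Ltf, Mmp8, Mmp9, Csf3r and Ly6g lay in the range of background, as defined next, on all 3 uninduced arrays. Mmp9 and Ly6g did so on all 6. The other 4, which were S100a8, S100a9, Camp and Ngp, lay above that range on all 6 arrays. A value below the 95th percentile of 1390 olfactory and vomeronasal receptor genes on the same array (7.05 to 7.99) is called in the range of background. This limit was not common to the arrays. It was 7.05 to 7.37 on the uninduced arrays and 7.39 on induced A, but 7.99 on induced B and 7.86 on induced C. A value can therefore count as background on induced B or C and not on the other arrays.

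**Figure D2:**
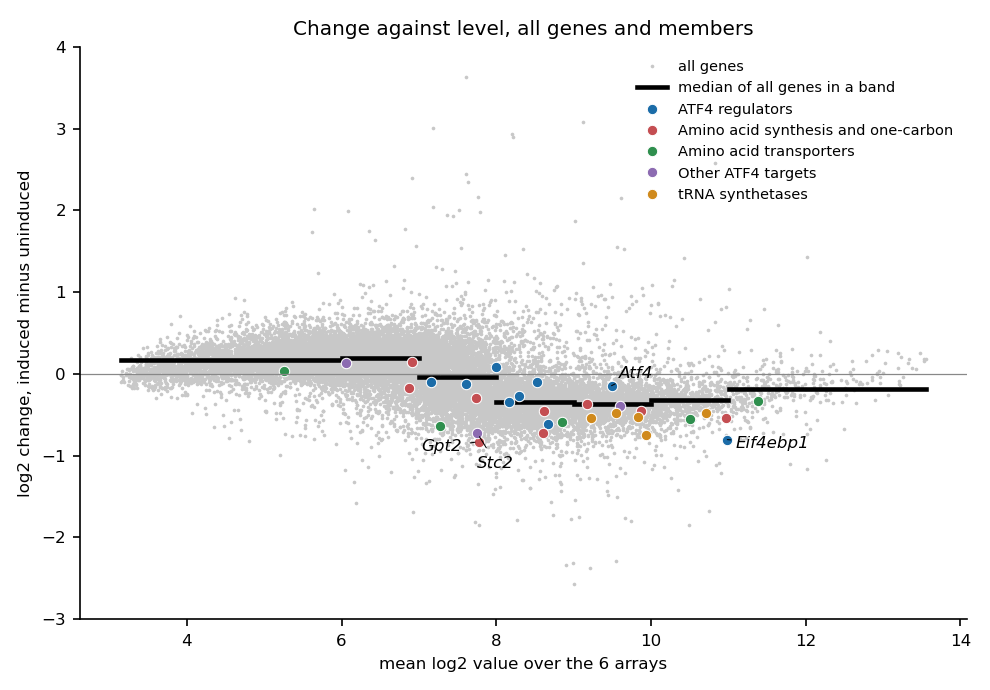
Log2 change (induced minus uninduced) against the mean log2 value over the 6 arrays, for 22180 genes (grey) and the 31 members (coloured by role); black bars are medians of all genes in bands of level. Most members lie among bright genes, where the bars lie below 0, and 25 of the 31 lie below the bar of their own band.

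Of the 31 members, 2 fell in induced cells, and 0 rose, by limma with Benjamini-Hochberg adjustment over 22180 genes at a threshold of 0.05. They were Eif4ebp1, a brake on cap-dependent translation, and Stc2, a secreted glycoprotein. Over all genes 1.05% fell and 0.374% rose. Among members with a mean of at least 8 only Eif4ebp1 of 20 fell, against 2.66% of such genes. At an unadjusted p under 0.05 it was 16 lower and 0 higher members, against 16.9% and 11.4% of all genes. Among bright members it was 13 of 20 lower and 0 higher, against 43.0% and 3.25% of bright genes. The change was below 0 for 27 of 31 members (87.1%), against 44.0% of all genes. Among the 20 members with a mean of at least 8 it was below 0 for all 20, against 90.1% of such genes. The groups did not overlap, with every induced value the lower, for 7 members (22.6%), against 15.4% of all genes; among bright members it was 4 of 20, against 35.7% of bright genes. The opposite held for 0 members and 16.0% of all genes. The 31 members had a median log2 change of -0.45, with 0.06 over all genes. The 20 bright members had a median of -0.48, with -0.34 over bright genes. After cyclic loess the median of the 31 was -0.15 with 26 below 0, none was past the threshold, and 0.532% of all genes were called lower. In these bulk samples fewer cells using a gene and less RNA per cell cannot be told apart.

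**Figure D3:**
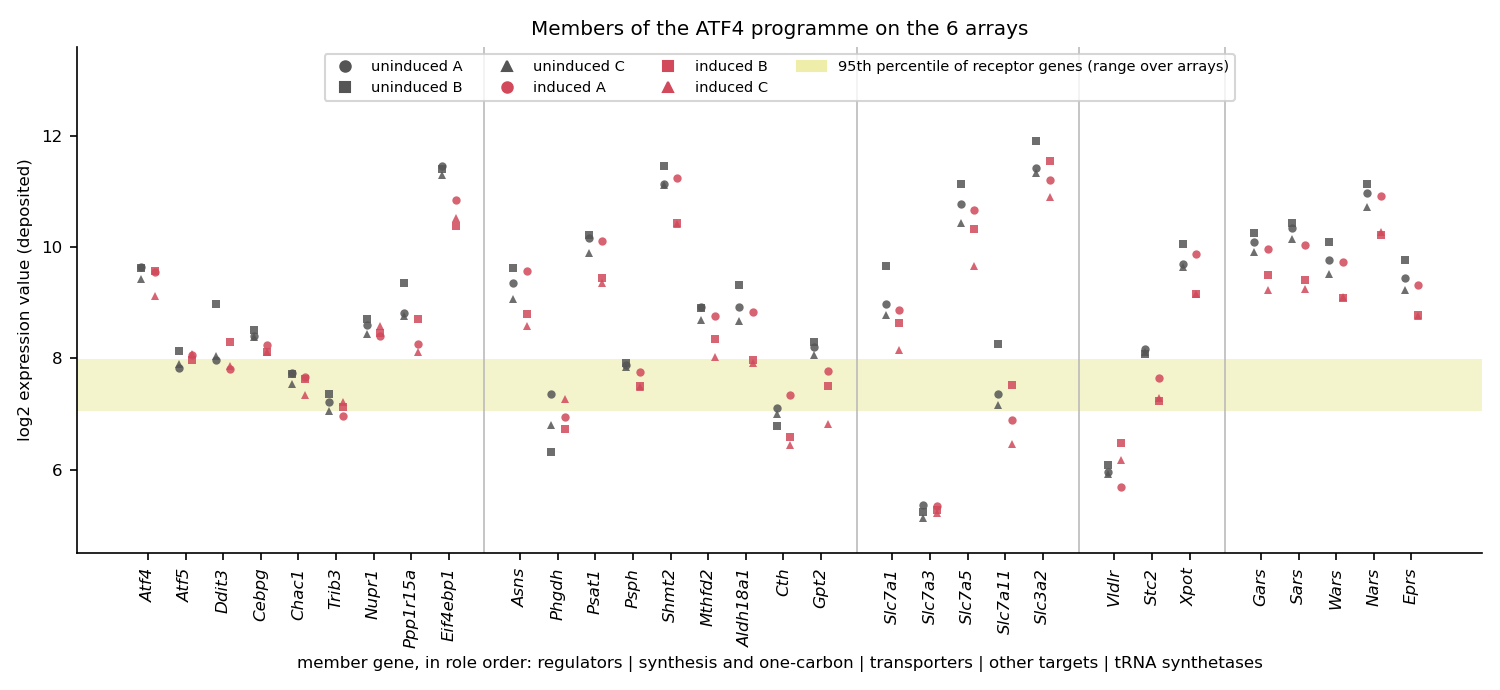
Deposited log2 values of the 31 members on the 6 arrays (grey uninduced, red induced; the marker shape gives the letter), in role order; the yellow band spans the 95th percentile of the receptor genes over the arrays. All 3 induced values lie below all 3 uninduced ones for 7 members, and for the remaining 24 the groups overlap.

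The regulators include Atf4 itself, which encodes the factor that drives the programme. Atf4 (chromosome 15, 80255184 to 80257545 in mm10) had log2 values of 9.64, 9.62 and 9.42 without doxycycline and 9.56, 9.57 and 9.12 with it, in the order A, B, C that holds for every such triplet below. Induced C was the lowest array, and induced A and B lay within the uninduced range. The difference was -0.14 (SE 0.15, 95% interval -0.49 to 0.20, limma adjusted p = 0.501). Its sign was not settled, since it was 0.23 after cyclic loess. Atf5, a related leucine zipper factor that is also translated under stress, was at 7.96 ± 0.16 in uninduced and 8.04 ± 0.05 in induced cells (mean ± SD, n = 3 per group). Cebpg encodes a C/EBP protein that pairs with ATF4. It was at 8.40, 8.51 and 8.38 without doxycycline and at 8.24, 8.12 and 8.12 with it. The groups of Cebpg did not overlap, but its difference of -0.27 (SE 0.12) missed the threshold (limma adjusted p = 0.179) and was 0.01 after cyclic loess.

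Ddit3 encodes CHOP, which ATF4 induces and which promotes cell death under lasting stress. Its values were 7.96, 8.99 and 8.05 in uninduced and 7.81, 8.30 and 7.86 in induced cells. The B array was the highest of both groups, and the groups overlapped; the difference was -0.34 (SE 0.25, limma adjusted p = 0.341). Without uninduced B it was -0.02. Chac1, an enzyme that degrades glutathione, differed by -0.12 (SE 0.14) with induced B and C in the range of background, and Nupr1, a small stress-induced chromatin protein, by -0.10 (SE 0.13), or 0.22 after cyclic loess. Trib3, a pseudokinase that restrains ATF4 and CHOP, exceeded the background range on uninduced B alone. None of these 4 passed the test, and 3 of them (Chac1, Nupr1 and Trib3) hold the composite core printed above, whereas the Ddit3 window does not.

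Ppp1r15a and Eif4ebp1 act on translation. Ppp1r15a encodes GADD34, which brings a phosphatase to eIF2alpha and so ends the stress signal. It was at 8.81, 9.35 and 8.76 in uninduced and at 8.27, 8.71 and 8.12 in induced cells. All 3 induced values of Ppp1r15a lay below all 3 uninduced ones, with a difference of -0.61 (SE 0.20, limma adjusted p = 0.123). Eif4ebp1 (chromosome 8, 27260327 to 27275656) encodes 4E-BP1, which holds the cap-binding factor eIF4E. It went from 11.46, 11.40 and 11.30 to 10.84, 10.39 and 10.52. The groups did not overlap, and induced A was the closest to the uninduced values. Eif4ebp1 fell by 0.80 on the log2 scale (SE 0.15, limma adjusted p = 0.0265), which is 1.75-fold lower. Its change was -0.51 after cyclic loess (limma adjusted p = 0.0657). The call ended when any 1 array other than induced A was left out, at changes of -0.85 to -0.71 (limma adjusted p = 0.0767 to 0.141). Without induced A it was -0.93 (limma adjusted p = 0.00441).

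The first enzymes of the programme make serine, and its folate enzymes use serine as a source of one-carbon units. Phgdh, which starts serine synthesis, was in the range of background on all 6 arrays, so its level is not resolved here. Psat1, the aminotransferase of the next step, was at 10.16, 10.22 and 9.90 in uninduced and at 10.11, 9.45 and 9.35 in induced cells. Induced A lay within the uninduced range, and induced B and C lay below it. Psph, the phosphatase of the last step, was at 7.88 ± 0.04 and 7.59 ± 0.15 and did not overlap between groups, but induced B and C lay in the range of background and the size is not fully resolved. Shmt2, which moves a carbon from serine to folate in mitochondria, was at 11.14, 11.45 and 11.11 and at 11.24, 10.43 and 10.42. Mthfd2, the next mitochondrial folate enzyme, was at 8.93, 8.91 and 8.68 and at 8.77, 8.35 and 8.03. Both repeated the pattern of Psat1, with induced A inside the uninduced range. The differences were -0.45 (SE 0.20) for Psat1, -0.30 (SE 0.13) for Psph, -0.54 (SE 0.21) for Shmt2 and -0.46 (SE 0.18) for Mthfd2, with limma adjusted p-values of 0.152 to 0.169.

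Asns, asparagine synthetase, is among the best known ATF4 targets and holds the composite core from position -23. It was at 9.36, 9.62 and 9.07 in uninduced cells and at 9.56, 8.80 and 8.58 in induced cells. Induced A lay among the uninduced values and the other induced arrays below them, with a difference of -0.37 (SE 0.24, limma adjusted p = 0.294). Without induced A the difference of Asns was -0.66 (limma adjusted p = 0.027). After cyclic loess over all 6 arrays it was -0.000171 (limma adjusted p = 1), and after cyclic loess without induced A it was -0.18 (limma adjusted p = 0.498).

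Gpt2 and Aldh18a1 serve alanine and proline synthesis. Gpt2, the mitochondrial alanine aminotransferase, was at 8.21, 8.29 and 8.07 and at 7.77, 7.51 and 6.81, with induced B and C in the range of background. The groups did not overlap, and the difference was -0.83 (SE 0.22, limma adjusted p = 0.0885). Aldh18a1, which starts proline synthesis from glutamate, was at 8.92, 9.32 and 8.67 and at 8.84, 7.97 and 7.92, a difference of -0.72 (SE 0.25, limma adjusted p = 0.127). Its induced B value also lay in the range of background, so the sizes for both genes are not fully resolved. Cth, which makes cysteine from cystathionine, was within background on all 6 arrays. By limma 0 of the 9 synthesis and one-carbon genes passed the threshold in either direction, and their median change was -0.45. At an unadjusted p under 0.05 it was 6 lower and 0 higher, against 16.9% and 11.4% of all genes. Of the 9, 5 had a mean of at least 8, and of such genes 43.0% were lower at that p.

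The transporters bring amino acids across the plasma membrane. Slc3a2 encodes the heavy chain CD98, with which the light chains Slc7a5 (LAT1, for leucine and other large amino acids) and Slc7a11 (xCT, which exchanges cystine for glutamate) pair. Slc7a5 was at 10.77, 11.13 and 10.44 in uninduced and at 10.68, 10.32 and 9.67 in induced cells, with induced C the lowest array and induced A within the uninduced range. Slc3a2 was at 11.42, 11.91 and 11.33 and at 11.21, 11.56 and 10.90, with the groups overlapping. Slc7a11 was at 7.35, 8.27 and 7.15 and at 6.89, 7.52 and 6.46. It was above the range of background on uninduced B alone, so its size of change is not resolved. Its dimmer transcript cluster differed by -0.11 (SE 0.13). Slc7a1, a carrier of arginine and lysine, was at 8.97, 9.67 and 8.78 and at 8.88, 8.64 and 8.15. Slc7a3, a related carrier, stayed in the range of background throughout. Differences were -0.56 (SE 0.25) for Slc7a5, -0.33 (SE 0.20) for Slc3a2 and -0.58 (SE 0.24) for Slc7a1. Of the 5 transporters 0 passed the test by limma, with 2 lower and 0 higher at an unadjusted p under 0.05. At that p 16.9% of all genes were lower and 11.4% higher. Of the 5, 3 had a mean of at least 8, and of such genes 43.0% were lower.

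Stc2 (chromosome 11, 31359441 to 31370061), which is induced in many cells by amino acid and endoplasmic reticulum stress, went from 8.17, 8.07 and 8.11 in uninduced cells to 7.66, 7.24 and 7.28 in induced cells. The groups did not overlap, and the SD of the uninduced arrays was 0.05. Stc2 fell by 0.73 on the log2 scale (SE 0.14, limma adjusted p = 0.039), which is 1.65-fold lower. Induced B and C lay in the range of background, so the size of the fall is not fully resolved. Its change was -0.57 after cyclic loess (limma adjusted p = 0.0785). The call ended when any 1 array other than induced A was left out, at changes of -0.75 to -0.65 (limma adjusted p = 0.111 to 0.204); without induced A it was -0.86 (limma adjusted p = 0.00526). Xpot, the exportin that carries tRNAs out of the nucleus, was at 9.69, 10.06 and 9.64 and at 9.88, 9.15 and 9.17, with induced A inside the uninduced range. Vldlr, a lipoprotein receptor, stayed in the range of background throughout.

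The tRNA synthetases join each amino acid to its tRNA, and ATF4 is known to raise many of those that work in the cytosol. Sars, the seryl enzyme, was at 10.35, 10.43 and 10.15 in uninduced and at 10.04, 9.40 and 9.26 in induced cells, with no overlap. Its difference of -0.74 (SE 0.20) missed the threshold (limma adjusted p = 0.0919). Gars, the glycyl enzyme, was at 10.10, 10.26 and 9.91 and at 9.97, 9.49 and 9.23. Wars, for tryptophan, was at 9.76, 10.10 and 9.52 and at 9.73, 9.09 and 9.11. Both had induced A inside the uninduced range and induced B and C below it. Nars, for asparagine, was at 10.98, 11.14 and 10.72 and at 10.91, 10.22 and 10.28. Eprs, a joint enzyme for glutamate and proline, was at 9.45, 9.78 and 9.24 and at 9.32, 8.79 and 8.76. These too had induced A within the uninduced range. The 5 differences lay between -0.74 and -0.47. By limma 0 of the 5 passed the threshold, and at an unadjusted p under 0.05 it was 5 lower and 0 higher. All 5 had a mean of at least 8, and of such genes 43.0% were lower and 3.25% higher at that p.

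**Figure D4:**
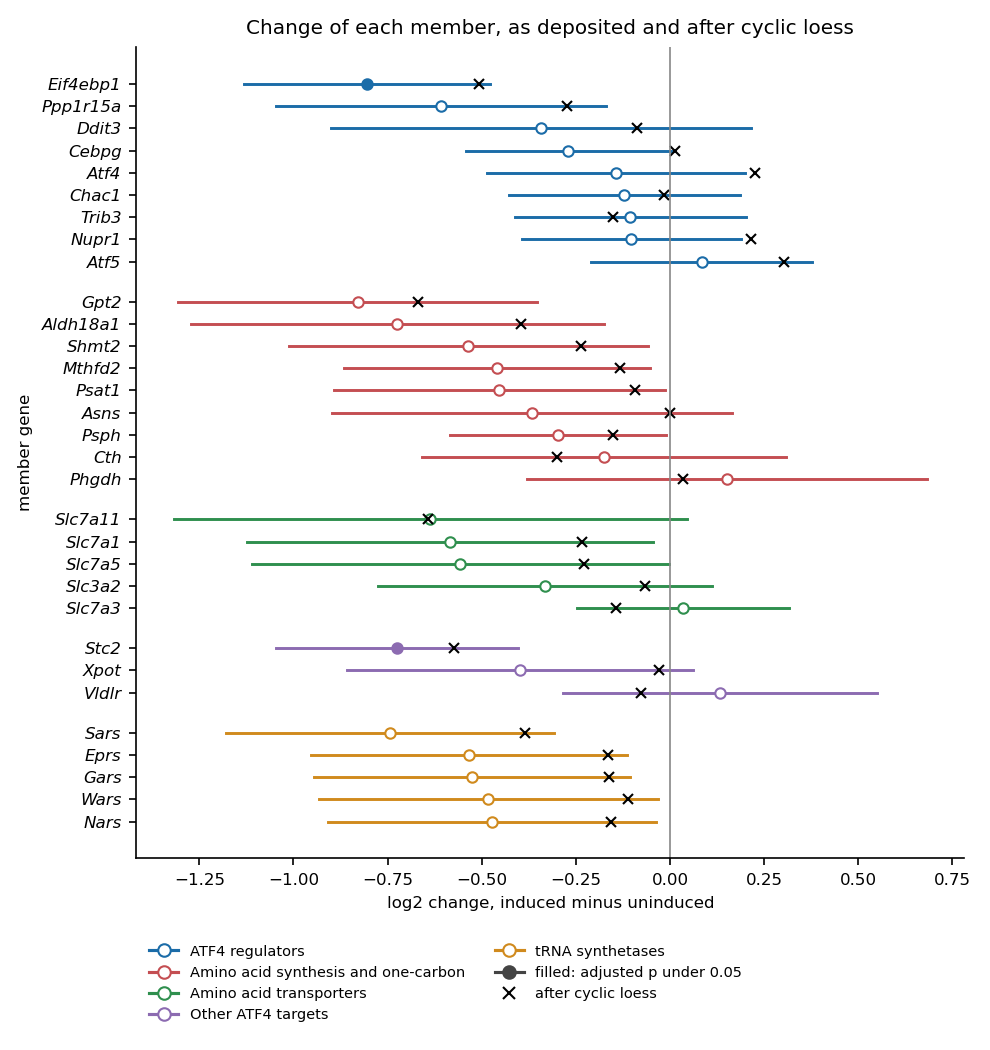
Log2 change (induced minus uninduced) of each member with its 95% interval, not adjusted for the number of genes, as deposited (circles, filled where the adjusted p was under 0.05) and after cyclic loess (crosses), ordered by role. Only Eif4ebp1 and Stc2 are filled, and the 5 tRNA synthetases lie between -0.74 and -0.47 as deposited and between -0.38 and -0.11 after cyclic loess.

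Each induced array was also set against the uninduced mean, role by role. For the 5 tRNA synthetases the median difference on induced A, B and C was -0.12, -0.70 and -0.73. For the 9 synthesis genes it was 0.00, -0.54 and -0.77. For the 5 transporters it was -0.26, -0.08 and -0.99. The value on induced B is that of Slc7a11, which is not resolved; the resolved Slc7a1, Slc7a5 and Slc3a2 differed there by -0.50, -0.46 and 0.00. For the 9 regulators it was -0.19, -0.08 and -0.32. All genes with a mean of at least 8 had medians of -0.11, -0.46 and -0.43 on the same arrays. Whether the roles differ from each other or from bright genes was not tested. Induced A lay within the uninduced range for 17 of 31 members, against 51.9% of all genes, and for 13 of the 20 bright members, against 50.5% of bright genes.

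**Figure D5:**
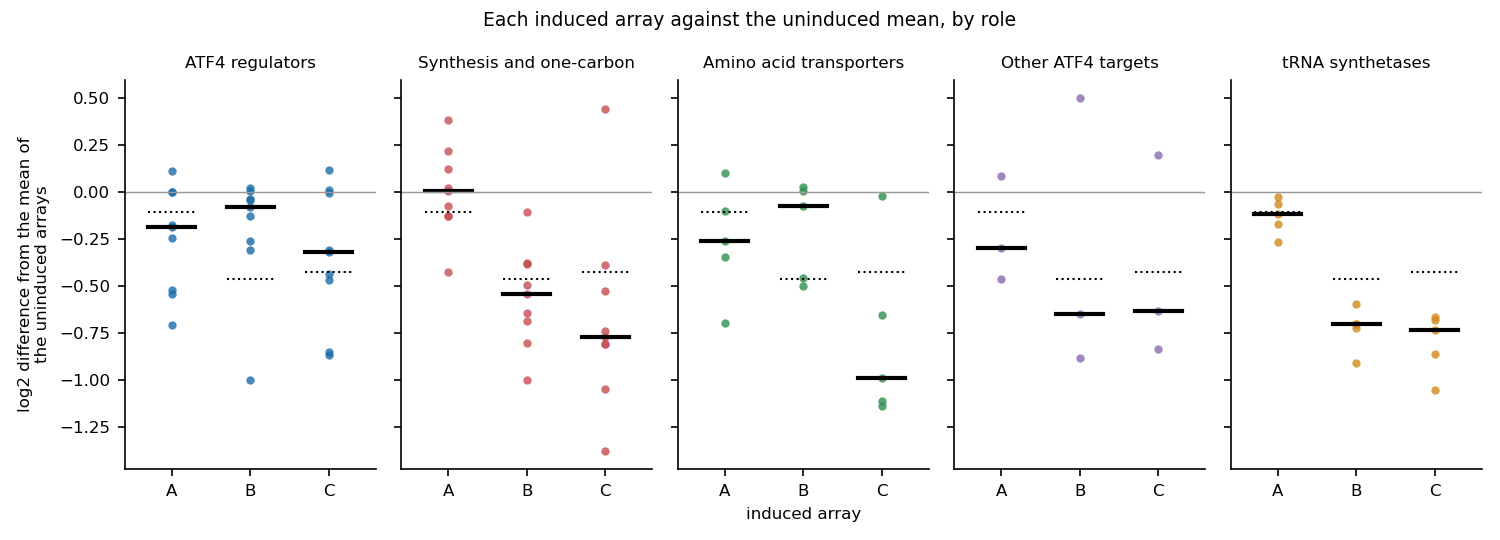
Log2 difference of each member from the mean of the uninduced arrays, on induced A, B and C, by role; solid bars are medians of the role and dotted bars medians of all genes with a mean of at least 8. In the tRNA synthetases the medians were -0.12, -0.70 and -0.73, and in the regulators they stayed between -0.32 and -0.08.

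Leaving out induced A changed the count of members more than any other array did. Without it 16 of 31 members were called lower and 0 higher by limma, against 15.9% and 9.01% of all genes. Among members with a mean of at least 8 it was 13 of 20 (65.0%), against 43.4% of all such genes, and 0 higher, against 2.85%. The 16 held all 5 tRNA synthetases, 7 synthesis genes, Slc7a5, Eif4ebp1, Stc2 and Xpot. After cyclic loess without induced A the called members were Eif4ebp1 (-0.53), Stc2 (-0.66), Aldh18a1 (-0.60) and Cth (-0.64), with limma adjusted p-values of 0.0461, 0.0301, 0.0499 and 0.0291. With the sample letter as a replicate block, on all 6 arrays, 4 members were called lower (Eif4ebp1, Stc2, Gpt2 and Sars) and 0 higher, against 1.92% and 0.784% of all genes. The cyclic loess fit without induced A called 2.31% of all genes lower and 2.26% higher. The size for Cth is not resolved, since it lay in the range of background. Split by the promoter letters, the 7 measured members with the composite core had a median change of -0.12 as deposited, from -0.64 (Slc7a11) to 0.13 (Vldlr), with 0 called. The 18 whose windows lack it had a median of -0.46, from -0.83 (Gpt2) to 0.15 (Phgdh), with 1 called, Stc2. Eif4ebp1 was among the 6 with no window, and the difference between these sets was not tested. Of the 7 with the core, Vldlr, Trib3 and Slc7a11 are not resolved and Chac1, whose value is the median, was above background on 1 induced array, so that median and its range rest on dim probes.

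The other genes of the pathway were described from fixed lists, which were also chosen with earlier results of these data known. Of 13 other cytosolic tRNA synthetases 0 were called by limma, with 10 lower and 0 higher at an unadjusted p under 0.05. All 13 had a mean of at least 8, and of all such genes 43.0% were lower at that p. Without induced A 12 of the 13 were called lower, against 43.4% of bright genes, and after cyclic loess without induced A 0 were. All 13 were below 0 as deposited, at -0.74 to -0.33, and 11 after cyclic loess. Rars was at 10.72 ± 0.31 and 10.20 ± 0.38, and Kars at 10.43 ± 0.22 and 9.83 ± 0.41. Their medians on induced A, B and C were -0.10, -0.67 and -0.79, close to those of the 5 members. Of 16 mitochondrial tRNA synthetases 0 were called either, with 3 lower and 0 higher at an unadjusted p under 0.05. At that p 16.9% of all genes were lower and 11.4% higher. Without induced A 3 of the 16 were called lower, against 15.9% of all genes and 43.4% of bright genes. The median of the 16 on all 6 arrays was -0.25, against -0.50 for the 13 cytosolic ones. Cars2 was at 8.80 ± 0.07 and 8.60 ± 0.19 and Yars2 at 8.48 ± 0.61 and 7.94 ± 0.47, with 1 of 3 induced values above background. Only 6 of the 16 had a mean of at least 8, and the difference between both classes was not tested.

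Among 13 other amino acid transporters 1 fell and 0 rose. Over all genes 1.05% fell and 0.374% rose. Of the 13, 9 had a mean of at least 8, and of such genes 2.66% fell and 0.333% rose. Slc7a8, which encodes LAT2 and also pairs with CD98, went from 8.98, 9.54 and 9.07 to 8.17, 7.56 and 7.99, with no overlap and induced B in the range of background. It fell by 1.29 on the log2 scale (SE 0.20, limma adjusted p = 0.0107), 2.44-fold, and by 0.97 after cyclic loess (limma adjusted p = 0.0132). Among 17 other amino acid and one-carbon enzymes, 10 of them with a mean of at least 8, Mthfd1l fell and 0 rose, against the same shares. Mthfd1l completes the mitochondrial folate pathway downstream of Mthfd2 by releasing formate. It went from 9.50, 9.62 and 9.34 to 8.67, 8.0 and 7.80, so that here induced A also lay below all uninduced arrays, and induced C was in the range of background. It fell by 1.33 (SE 0.21, limma adjusted p = 0.0117), 2.51-fold, and by 0.98 after cyclic loess (limma adjusted p = 0.0197). Its call ended without uninduced A or B or induced B or C, with limma adjusted p-values up to 0.0611, while its change was -1.58 to -0.98 over all 15 other settings.

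Of 13 other stress targets that ATF4 can raise, 3 fell and 0 rose. Over all genes 1.05% fell and 0.374% rose. Of the 13, 9 had a mean of at least 8, and of such genes 2.66% fell and 0.333% rose. Ddit4, which encodes REDD1, an inhibitor of the growth kinase mTORC1, went from 9.15, 9.28 and 9.04 to 7.55, 7.06 and 7.51. It fell by 1.78 on the log2 scale (SE 0.16, limma adjusted p = 0.000427), 3.44-fold, with induced B and C in the range of background. Ndrg1, a stress-responsive cytoplasmic protein, went from 9.97, 10.06 and 9.81 to 8.18, 8.44 and 7.97 and fell by 1.75 (SE 0.15, limma adjusted p = 0.000378). The dimmer transcript cluster of Ndrg1, at 5.51 to 6.24, differed by -0.39 and was not called (limma adjusted p = 0.138). Ero1a, an oxidase of disulfide formation in the endoplasmic reticulum, went from 12.53, 12.22 and 12.30 to 11.42, 11.24 and 11.07 and fell by 1.11 (SE 0.15, limma adjusted p = 0.00474). The dimmer transcript cluster of Ero1a differed by -0.91 (limma adjusted p = 0.0203). In these 3 genes all induced arrays, induced A among them, lay well below the uninduced ones. All 3 are also known as targets of hypoxia-inducible factors. Ddit4, Ndrg1 and Ero1a, like Slc7a8, kept their calls in all 15 other settings at the 0.05 threshold.

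The lists for the signal upstream of ATF4 and its partner pathways held no called gene on all 6 arrays. Without induced A limma called lower 4 of 8 eIF2alpha genes, 8 of 17 of the ATF6 and XBP1 branches, 2 of 4 C/EBP genes and 6 of 10 NRF2 genes, and 0 higher. The same fit called lower 15.9% of all genes and 43.4% of genes with a mean of at least 8. Such bright genes made up 5, 16, 3 and 7 of these lists. After cyclic loess without induced A 2 NRF2 genes and 0 of the other 3 lists were called lower, against 2.31% of all genes. Of 8 genes of eIF2alpha kinases and phosphatases 0 passed by limma, with 3 lower and 0 higher at an unadjusted p under 0.05. For all 4 lists, the shares at that p were 16.9% lower and 11.4% higher over all genes. Over bright genes they were 43.0% and 3.25%. Ppp1r15b, the constitutive partner of GADD34, was at 10.33 ± 0.20 and 9.96 ± 0.20. Gcn1, which activates the amino acid sensing kinase, was at 9.52 ± 0.16 and 9.53 ± 0.07, a difference of 0.01, while its dimmer transcript cluster differed by -0.37. Of 17 genes of the ATF6 and XBP1 branches of the unfolded protein response 0 passed, with 4 lower and 0 higher at an unadjusted p under 0.05. The lectin chaperone Canx was at 12.60 ± 0.14 and 12.42 ± 0.18 and Calr at 12.32 ± 0.13 and 12.20 ± 0.23. Of 4 C/EBP genes, the partners of ATF4, 0 passed, with 1 lower and 0 higher unadjusted; Cebpe was at 11.32 ± 0.03 and 10.99 ± 0.37 and Cebpa at 9.22 ± 0.08 and 8.82 ± 0.47. Of 10 NRF2 genes, which share the control of Slc7a11, 0 passed, with 4 lower and 0 higher unadjusted. Gsr, glutathione reductase, was at 11.71 ± 0.11 and 11.69 ± 0.10, and the haem transporter Slc48a1 at 11.37 ± 0.20 and 11.05 ± 0.26.

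Markers of maturing myeloid cells moved with the groups. Of 9 macrophage markers 3 rose and 0 fell, among them Cd68, from 8.44 ± 0.22 to 9.81 ± 0.33. The sum of their linear values was 1078 to 1207 in uninduced and 2047 to 2968 in induced arrays, with 5 of the 9 in the range of background on every array. Of 9 neutrophil markers 4 rose (S100a9, Mmp8, Ltf and Csf3r) and 0 fell, with S100a9 going from 8.89 ± 0.03 to 10.42 ± 0.46. The rest were not called, at differences from -0.27 (Ly6g) to 0.45 (Mmp9), with Ngp at 0.02. The sum over the 9 went from a range of 12968 to 14598 uninduced to one of 15615 to 18549 induced. Of mast cell, erythroid, B cell, megakaryocyte and hepatocyte markers 0 were called, and 27 of those 31 were in the range of background on every array. The part of maturation in the members' values was not tested.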

How the data were processed

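RNA of 6 samples was hybridised to Mouse Gene 2.0 ST arrays. The deposited values were already processed by the authors and lie on a log2 scale, as read from their range of 2.86 to 14.03. Per the submitters' processing notes Partek and the build mm10 were used; the version, background correction and normalization were not stated there or in the labels. The deposited log2 values were used with no further normalization. Of 41345 transcript clusters, 23521 had 1 gene symbol in the platform annotation, 1814 had several and 16010 were not listed; for 1082 genes with several clusters the brightest stood for the gene. This left 22180 genes.

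Induced minus uninduced was tested in limma 3.58.1 (R 4.3.3) on all genes, with 3 samples per group, Benjamini-Hochberg adjustment and a threshold of 0.05. Array values carry no read depth, and the number of arrays limits the precision. Alternatives were quantile normalization, median centring, cyclic loess, a filter at the 50th percentile, a robust variance trend, array weights, the mean of a gene's clusters, a threshold of 0.01, the sample letter as a block and leaving out each array. Cyclic loess without induced A was added after seeing the data. Every member is named. From each other pathway list the text names the genes that passed the test or, where none did, the pair of brightest ones. From the marker lists it names the genes that passed. Other genes named, and the 5 genes shown with 30 bases, were chosen after their values were seen. The members and lists were chosen with earlier results of these data known. The fit was tested on simulated data.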

Additional observations from a re-analysis of the deposited data

How the results depend on the processing

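The count of members called lower, 2 as deposited, was 1 after quantile normalization, 0 after median centring, 0 after cyclic loess, 0 at a threshold of 0.01 and 22 with array weights (where 25.6% of all genes were called lower and 26.3% higher). It was 0 to 16 on leaving out 1 array, and 4 after cyclic loess without induced A. No member was called higher in any setting run. With the sample letter as a replicate block 4 members were called lower (Eif4ebp1, Stc2, Gpt2 and Sars, limma adjusted p = 0.0182, 0.0312, 0.0233 and 0.0372), against 1.92% of all genes. Deviations of samples with the same letter correlated at -0.31 for A, -0.28 for B and 0.42 for C. Pairs with different letters ran from -0.42 (uninduced C with induced A) to 0.52 (uninduced B with induced A). Deviations within a group of so few arrays depend on each other. These values therefore cannot decide whether samples with the same letter belong together. Of 492 results of single members under an alternative, 413 kept direction and side of the threshold, 38 passed it newly, 17 lost it and 24 changed sign. The median of the regulators was -0.285 after median centring, which moved the median of all genes by -0.14, and 0.059 after cyclic loess without induced A. After cyclic loess it was -0.151 for the synthesis genes and -0.163 for the tRNA synthetases. Signs changed after quantile normalization for Atf4 (0.0839), Nupr1 (0.0978), Slc7a3 (-0.0928) and Vldlr (-0.0201), and after cyclic loess for Atf4 (0.226), Cebpg (0.0126), Nupr1 (0.215), Slc7a3 (-0.143) and Vldlr (-0.0767). They changed after median centring for Atf5 (-0.0567), Slc7a3 (-0.106) and Vldlr (-0.00865), and with array weights for Trib3 (0.093) and Nupr1 (0.0694). After cyclic loess without induced A they changed for Atf4 (0.278), Ddit3 (0.0971), Cebpg (0.059), Nupr1 (0.354), Slc7a3 (-0.232) and Slc3a2 (0.0445). On leaving out 1 array the change ran from -0.219 to 0.00265 for Atf4, from -0.103 to 0.415 for Phgdh, from -0.0228 to 0.0956 for Slc7a3 and from -0.0513 to 0.347 for Vldlr. The cause was not tested. Signal over background limits Phgdh, Cth, Slc7a3 and Vldlr, which no array resolves.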

Other observations

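Some members were highest on the B array of both groups, a pattern noticed after seeing the data. This held for 5 of 31 members (Ddit3, Ppp1r15a, Slc7a11, Slc3a2 and Vldlr; 16.1%), against 8.01% of all genes and 6.46% of genes with a mean of at least 8. Within letters, Ppp1r15a differed by -0.55 in A, -0.64 in B and -0.64 in C, and Slc3a2 by -0.22, -0.35 and -0.43. Ddit3 differed by -0.15, -0.69 and -0.19. Nothing in the labels says that samples with the same letter were handled together.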
